A study of Homo sapiens with 6 samples.

Results

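The enzymes described here carry out the steps of the tricarboxylic acid cycle other than the isocitrate steps and succinate dehydrogenase. The group was chosen by gene symbol in the deposited intensity table and holds 10 genes, namely CS, OGDH, DLST, DLD, SUCLA2, SUCLG1, SUCLG2, FH, MDH1 and MDH2. They were read by 16 of the 47230 probes on each array, and all 10 genes entered the comparison of 13744 genes. Illumina bead arrays had been hybridised with cRNA made from the total RNA of PANC-1, a long-established line of human pancreatic cancer cells. On 3 arrays the cells had been transfected with a small interfering RNA against the orphan nuclear receptor NR4A1 (siNR4A1, written siTR4A1 in the sample titles), and 3 further arrays held cells that received a control small interfering RNA (siControl). The dose, the time after transfection and the sequence of the small interfering RNAs are not given in the sources used here. In bulk RNA, fewer cells with a transcript and less of it per cell cannot be told apart. All samples come from a single cell line, and the labels do not say that replicates were separate cultures, so the p-values cover the spread between these arrays alone, and part of it may be technical. The series links NR4A1 to metabolism of reactive oxygen species, and the question asked here is whether transcripts of these enzymes differed after siNR4A1.

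The cycle oxidises acetyl groups in the mitochondrial matrix and passes electrons to the respiratory chain. Citrate synthase (CS) joins acetyl-CoA to oxaloacetate. The 2-oxoglutarate dehydrogenase complex, built from OGDH, DLST and DLD, makes succinyl-CoA, from which succinyl-CoA ligase forms succinate together with ATP or GTP. Fumarate hydratase (FH) and malate dehydrogenase (MDH2) then lead back to oxaloacetate, while MDH1 is the cytosolic malate dehydrogenase of the malate-aspartate shuttle.

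The number of detected probes per array lay between 18241 and 20460, and mean signal ran from 439 to 520 on siNR4A1 arrays and from 332 to 623 on siControl arrays, siControl replicate 3 being the brightest. A probe counts as detected above the 95% point of the array's own background. After background correction and quantile normalization Pearson's r across genes lay between 0.994 and 0.995 within siNR4A1, between 0.990 and 0.993 within siControl and between 0.978 and 0.988 across the groups. NR4A1 itself was detected on 0 of 6 arrays with each of its 3 probes, the brightest of which had signals of 106 ± 9.30 in siNR4A1 and 98.8 ± 10.8 in siControl (SD, n = 3 each), so the knockdown was not measurable at the mRNA level. Of 7 markers chosen for PANC-1 (keratins, EPCAM, CDH1 and the mesenchymal VIM), 5 were detected on at least 3 arrays, with VIM, KRT8 and EPCAM on all 6, while KRT7 and CDH1 were detected on none. Of 12 markers of other cell types 4 were detected on at least 3 arrays, namely CD14, COL3A1, ALB and HBA1, and CD3E, PECAM1, VWF, PRSS1 and CPA1 were detected on none. The summed signal of all 12 before normalization ran from 1314 to 1519 in siNR4A1 and from 1134 to 1637 in siControl. Most of the 12 were not detected on 3 or more arrays, so these sums hold much background. They were not corrected for array brightness and do not measure other cell types. CD14 and HBA1 rose by 0.45 and 0.41 on the log2 scale and ALB fell by 0.32 (limma, adjusted p = 0.0111, 0.0416 and 0.0439). Their signals were dim, reaching at most 237, 190 and 199, against detection limits of 96.9 to 131. Over all probes HBA1 and ALB missed the threshold (limma, adjusted p = 0.0534 and 0.0539). The other CD14 probe was detected on 0 arrays. The part of CD14, HBA1 and ALB in the results was not tested.

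Of these enzymes 3 passed the test, and both beta subunits of succinyl-CoA ligase were among them, with opposite signs. SUCLA2, its ATP-forming beta subunit, and CS fell in siNR4A1, and SUCLG2, the GTP-forming beta subunit, rose; the other 7 genes did not pass. In all, 1 of 10 genes rose and 2 fell at a Benjamini-Hochberg adjusted p under 0.05 in limma, where 10.6% of the 13744 genes tested rose and 8.59% fell, or 19.2% in either direction. The median log2 change of the 10 genes was -0.17, against 0.02 over all genes tested. In 6 of the 10 genes the 3 siNR4A1 arrays lay entirely on one side of the 3 siControl arrays, a pattern met by 35.3% of all genes. When array medians were equalized instead of quantiles, limma called 0 of 13744 genes, 1087 of which had an unadjusted p under 0.05, and the median over all genes became 0.13; SUCLA2, SUCLG2 and CS then lay at -0.42, 0.49 and -0.23 relative to that median.

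**Figure D1:**
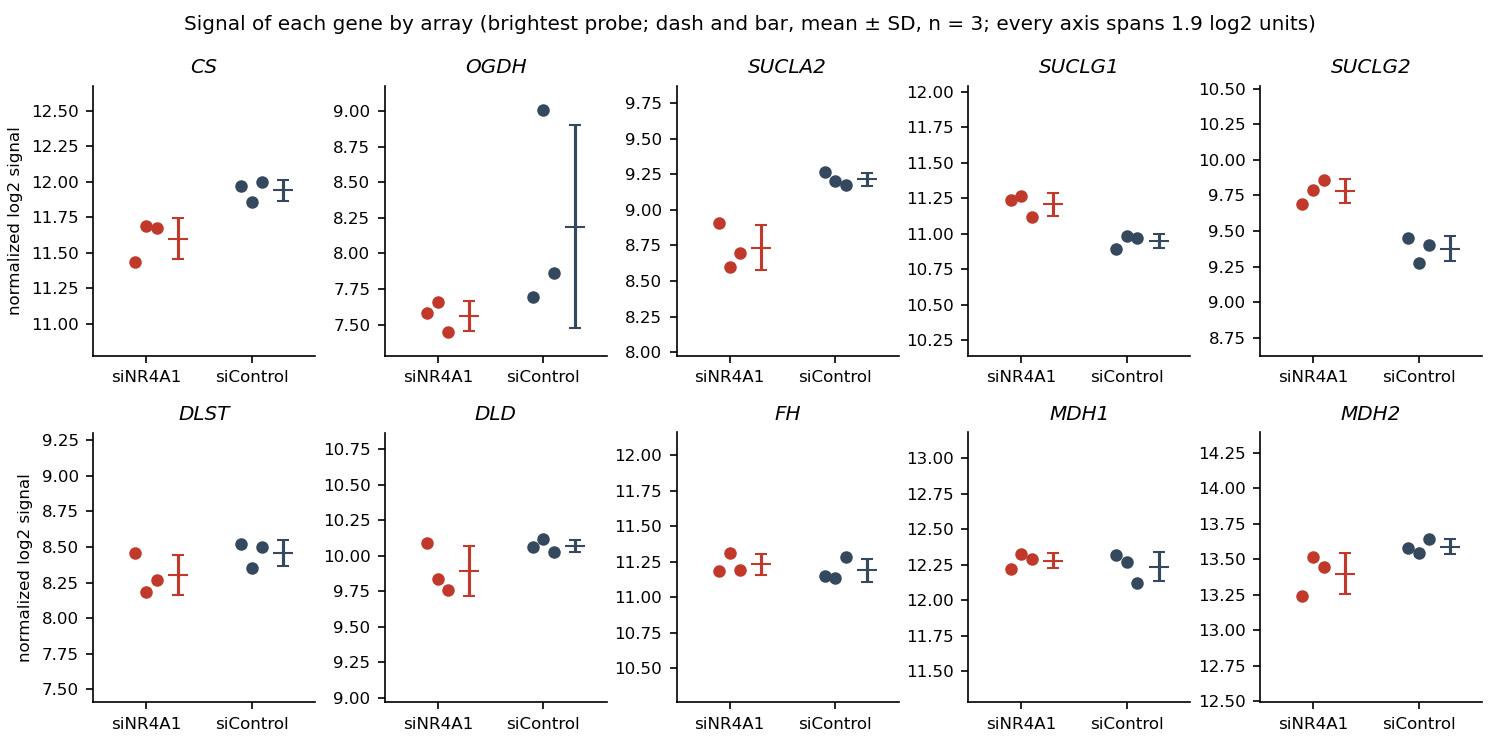
Normalized log2 signal (y axis, each panel spanning the same range) of the brightest probe of each of the 10 genes on the 3 siNR4A1 arrays (left, red) and the 3 siControl arrays (right, blue), with mean ± SD beside the points. SUCLA2 lay between 8.60 and 8.91 in siNR4A1 and between 9.18 and 9.27 in siControl, SUCLG2 between 9.69 and 9.86 in siNR4A1 and between 9.28 and 9.45 in siControl, and OGDH shows 1 siControl array at 9.01.

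Succinyl-CoA ligase is a dimer of the shared alpha subunit SUCLG1 with either beta subunit, SUCLA2 or SUCLG2. The normalized log2 signal of SUCLA2 was 8.91, 8.60 and 8.69 on the siNR4A1 arrays, against 9.27, 9.20 and 9.18 on the siControl arrays. All siNR4A1 values were lower than any siControl value, and the siControl arrays were the more tightly grouped. Before normalization the signals of this probe were 491, 455 and 485 in siNR4A1 and 455, 412 and 901 in siControl, and the groups overlapped. In log2 units SUCLA2 fell by 0.48 ± 0.11 (SE with 3 arrays per group), or 1.40-fold (limma, adjusted p = 0.00758). Its second probe, ILMN_1660787, read 8.56, 8.49 and 7.90 in siNR4A1 and 8.99, 9.14 and 8.72 in siControl. That probe also separated the groups and fell by 0.63 ± 0.16 (SE; limma over all probes, adjusted p = 0.0157). The SUCLA2 call was lost without siNR4A1 replicate 2, where the change was -0.41 (limma, adjusted p = 0.0503).

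SUCLG2 went the other way. Its only probe had a normalized log2 signal of 9.69, 9.79 and 9.86 in siNR4A1, against 9.45, 9.28 and 9.40 in siControl, so the groups did not overlap and siNR4A1 was higher. SUCLG2 rose by 0.40 ± 0.11 (SE with 3 arrays per group), or 1.32-fold (limma, adjusted p = 0.0170). The call was lost without siNR4A1 replicate 2 (0.40), without siNR4A1 replicate 3 (0.37) and without siControl replicate 2 (0.36), at adjusted p-values of 0.0600, 0.0795 and 0.0522 in limma. Before normalization the signals were 824, 1012 and 1060 in siNR4A1 and 514, 432 and 1044 in siControl, where the bright siControl replicate 3 reached the level of the siNR4A1 arrays. For the alpha subunit SUCLG1 the values were 11.24, 11.27 and 11.12 in siNR4A1 and 10.89, 10.99 and 10.97 in siControl. These groups did not overlap either, with siNR4A1 higher by 0.26 ± 0.11 (SE), but SUCLG1 did not pass (limma, adjusted p = 0.104; 95% interval 0.03 to 0.49) and passed in 0 of 16 alternative settings.

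The difference between both beta subunits was then taken within each array, which removes any brightness common to the array. Probes differ in brightness of their own, so only the shift between groups can be read. SUCLA2 minus SUCLG2 was -0.78, -1.19 and -1.17 in siNR4A1, against -0.18, -0.07 and -0.22 in siControl. The siNR4A1 arrays lay far below every siControl array, and the shift was -0.89 ± 0.14 (SE, n = 3 per group). An exact two-sided permutation test gave p = 0.1, the smallest that 3 against 3 arrays allow, and p = 0.1 after adjustment over the 2 pairs compared. It equals the change of SUCLA2 less that of SUCLG2, both given above, and is no separate evidence. The shift ran from -1.02 to -0.81 over the settings that left out 1 array each. With array medians equalized it was -0.90. That scaling moves all genes of an array by the same amount, which cancels in this difference, so the value is no check on scaling. The pair was not tested under it.

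**Figure D2:**
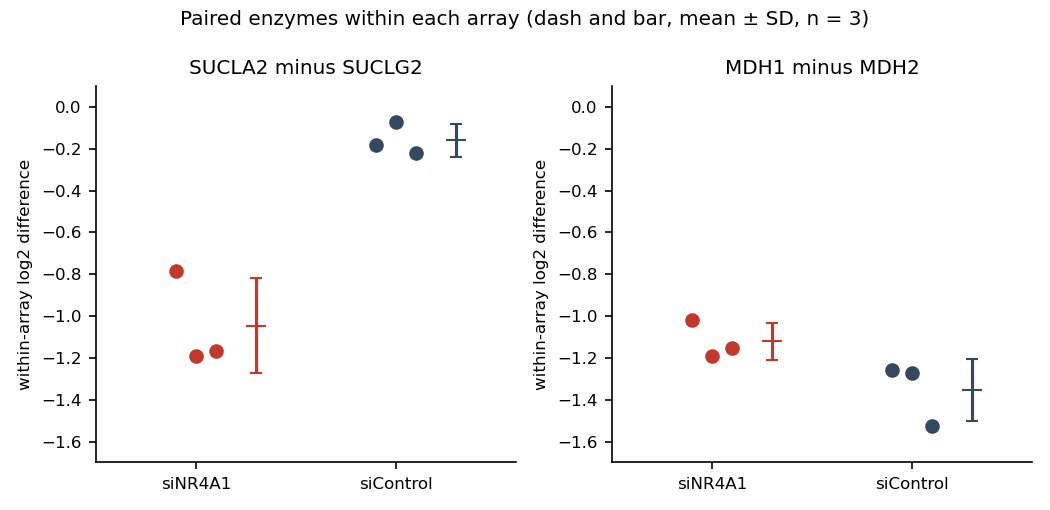
Log2 difference between the brightest probes of 2 genes on the same array (y axis), for SUCLA2 minus SUCLG2 (left panel) and MDH1 minus MDH2 (right panel), in siNR4A1 (red) and siControl (blue), with mean ± SD of 3 arrays. SUCLA2 minus SUCLG2 averaged -1.05 in siNR4A1 and -0.16 in siControl, and MDH1 minus MDH2 averaged -1.12 in siNR4A1 and -1.35 in siControl.

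The promoter windows of the 3 genes that passed are shown because the transfected small interfering RNA was directed at a transcription factor. NR4A1 is known to bind, as a monomer, the element NBRE (AAAGGTCA), and GC boxes (GGGCGG) are bound by SP-family factors. Each sequence runs 5′ to 3′ on the gene's strand, from 250 bases before to 50 bases after the RefSeq transcription start, in GRCh38.p14. Capitals mark matches to NBRE and to the GC box on either strand.
SUCLA2, chr13:48001224-48001523, minus strand: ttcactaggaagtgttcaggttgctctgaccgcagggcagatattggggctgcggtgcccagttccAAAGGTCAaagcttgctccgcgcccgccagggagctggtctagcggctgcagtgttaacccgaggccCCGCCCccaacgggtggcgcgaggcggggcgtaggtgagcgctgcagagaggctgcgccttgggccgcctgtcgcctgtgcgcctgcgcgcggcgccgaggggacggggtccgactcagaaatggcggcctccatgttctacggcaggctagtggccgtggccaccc
SUCLG2, chr3:67654563-67654862, minus strand: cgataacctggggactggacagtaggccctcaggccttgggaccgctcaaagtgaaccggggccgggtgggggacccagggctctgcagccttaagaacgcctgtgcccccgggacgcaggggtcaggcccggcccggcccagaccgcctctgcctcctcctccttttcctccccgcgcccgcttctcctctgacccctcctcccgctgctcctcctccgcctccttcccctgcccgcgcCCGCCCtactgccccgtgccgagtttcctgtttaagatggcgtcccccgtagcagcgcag
CS, chr12:56300281-56300580, minus strand: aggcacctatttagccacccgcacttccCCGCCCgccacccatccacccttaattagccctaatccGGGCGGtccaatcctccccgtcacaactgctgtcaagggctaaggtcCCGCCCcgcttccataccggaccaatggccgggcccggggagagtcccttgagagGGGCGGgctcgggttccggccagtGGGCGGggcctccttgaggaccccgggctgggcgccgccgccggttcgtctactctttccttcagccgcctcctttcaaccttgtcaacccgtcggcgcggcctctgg
SUCLA2 held 1 NBRE match, beginning at base 67 of the window, and 1 GC box. SUCLG2 held 1 GC box, and CS held 5. A RefSeq window was at hand for 9 of the 10 genes, OGDH being the exception, and DLD and MDH1 had 2 windows each. Of the 11 windows of these 9 genes, 1 held NBRE and 5 held a GC box, against 1.22% and 45.0% of all 35116 windows in the table. The NBRE contains the nuclear receptor half-site AGGTCA, which was also present in MDH1 and in 13.8% of all windows. The ETS site CCGGAAG was present in DLST and MDH2 and in 10.3% of all windows. CCAAT was present in 7 of the 11 windows, from 6 of the 9 genes, and in 34.6% of all windows. The core of the NRF1 element (GCATGCGC), bound by a regulator of many mitochondrial genes, was found in DLD and in 3.05% of all windows. A match describes letters in the window and was not tied to binding by any measurement here.

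CS makes citrate, the entry step of the cycle. Its brightest probe, ILMN_3307648, had a normalized log2 signal of 11.44, 11.69 and 11.68 in siNR4A1, against 11.97, 11.86 and 12.00 in siControl. Before normalization the signals were 2681, 3703 and 3723 in siNR4A1 and 2854, 2437 and 5928 in siControl. The normalized groups did not overlap, with siNR4A1 lower, whereas the raw signals did, and CS fell by 0.34 ± 0.11 (SE with 3 arrays per group), or 1.27-fold (limma, adjusted p = 0.0463). That call lay close to the threshold. Adjusted over all 18231 probes in place of 1 probe per gene it missed, at 0.0573, and it was lost when any array but siControl replicate 2 was left out, with changes from -0.38 to -0.26 over the arrays left out. The other probes gave the same direction. ILMN_1706057 fell by 0.35 ± 0.11 (SE; limma over all probes, adjusted p = 0.0444), with 11.00, 11.17 and 11.11 in siNR4A1 and 11.54, 11.45 and 11.34 in siControl. The dimmer ILMN_2396410 showed the widest gap, at 8.32, 8.61 and 7.97 in siNR4A1 and 8.98, 9.25 and 9.02 in siControl. It fell by 0.79 ± 0.15 (SE) or 1.73-fold (limma over all probes, adjusted p = 0.00229). The remaining probe, ILMN_1709775, was detected on 0 arrays. The mean of the 3 detected probes changed by -0.49.

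The 2-oxoglutarate dehydrogenase complex showed lower values in siNR4A1 for each of its 3 components, and none passed. OGDH, the thiamine-dependent first component, had siControl arrays that lay far apart. Its brightest probe, ILMN_1733869, read 7.58, 7.66 and 7.45 in siNR4A1, against 7.69, 9.01 and 7.86 in siControl. The siControl arrays were all higher, but siControl replicate 2 stood more than 1 log2 unit above the other two, with a raw signal of 364 on an array whose mean signal was the lowest of the 6. The change was -0.63 ± 0.23 (SE with 3 arrays per group; limma, adjusted p = 0.0664; 95% interval -1.11 to -0.14). Without siControl replicate 2 it was -0.22, and without siControl replicate 1 or 3 it was -0.89 and -0.77, both past the threshold (limma, adjusted p = 0.0243 and 0.0397). The second detected probe of OGDH, ILMN_1747159, was above the detection limit on 1 siNR4A1 and 2 siControl arrays and differed by -0.24 ± 0.13 (SE). The remaining probe was detected on 0 arrays.

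DLST is the lipoyl-bearing transferase of the complex. It read 8.46, 8.18 and 8.27 in siNR4A1, against 8.52, 8.35 and 8.50 in siControl, overlapping groups that differed by -0.16 ± 0.11 (SE with 3 arrays per group; limma, adjusted p = 0.376; 95% interval -0.40 to 0.09). DLD, the flavoprotein that reoxidises the lipoyl group here and in other 2-oxoacid dehydrogenase complexes, read 10.09, 9.83 and 9.76 in siNR4A1, against 10.06, 10.12 and 10.03 in siControl. In siNR4A1 replicates 2 and 3 lay under, and replicate 1 within, the siControl range. The change was -0.18 ± 0.12 (SE; limma, adjusted p = 0.316; 95% interval -0.42 to 0.07), and it took the other sign, 0.061, with array medians equalized.

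FH hydrates fumarate to malate. It read 11.19, 11.32 and 11.19 in siNR4A1 and 11.15, 11.13 and 11.29 in siControl, interleaved values that differed by 0.04 ± 0.11 (SE with 3 arrays per group; limma, adjusted p = 0.833). The 95% interval of that difference, -0.19 to 0.27, bounds a change in either direction at this number of arrays. The cytosolic MDH1 read 12.22, 12.33 and 12.29 in siNR4A1 and 12.32, 12.27 and 12.12 in siControl. Those groups overlapped as well and differed by 0.04 ± 0.11 (SE; limma, adjusted p = 0.834; 95% interval -0.19 to 0.27), a sign that turned to -0.016 without siControl replicate 3.

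MDH2, the matrix enzyme that closes the cycle, read 13.24, 13.52 and 13.44 in siNR4A1, against 13.58, 13.55 and 13.65 in siControl. The siNR4A1 arrays were all lower, by a narrow margin in replicate 2, and the change of -0.19 ± 0.11 (SE, n = 3 per group) did not pass (limma, adjusted p = 0.265; 95% interval -0.43 to 0.05). MDH1 minus MDH2 within an array was -1.02, -1.19 and -1.15 in siNR4A1 and -1.26, -1.27 and -1.53 in siControl. The groups did not overlap, and the shift was 0.23 ± 0.10 (SE). The exact two-sided permutation test gave 0.1, the smallest p it allows, also after adjustment over the 2 pairs. This shift equals the change of MDH1 less that of MDH2, neither of which passed, and is no separate evidence.

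Over single probes, 14 of the 16 were detected on at least 3 arrays. Of these 14, 1 rose and 4 fell, where 8.23% of all 18231 named and detected probes rose and 7.96% fell (limma, adjusted p under 0.05), or 16.2% in all. The falling probes all belonged to CS (ILMN_1706057 and ILMN_2396410) and SUCLA2 (ILMN_2150019 and ILMN_1660787). Those genes are already counted above, so the probes are not separate members. Every gene with more than 1 detected probe, namely CS, OGDH and SUCLA2, had its detected probes on one side of 0. RefSeq lists pseudogenes with symbols built on those of SUCLA2, SUCLG2, CS, DLST, FH and MDH1, and hybridisation of such copies to these probes was not tested.

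**Figure D3:**
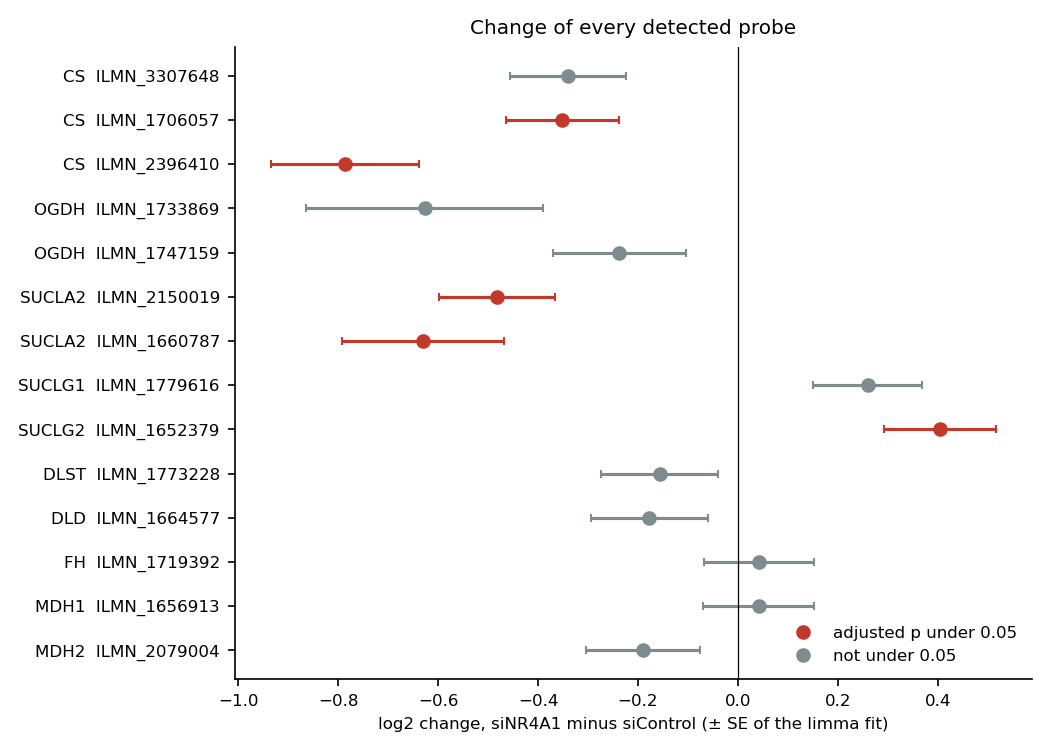
Log2 change (x axis, siNR4A1 minus siControl, bar ± SE of the limma fit over all probes) of each of the 14 detected probes of the 10 genes, red where the adjusted p over 18231 probes was under 0.05. The CS and SUCLA2 probes all lie left of 0, from -0.34 to -0.79, and SUCLG2 and SUCLG1 lie right of 0 at 0.40 and 0.26.

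The genes whose normalized values over the 6 arrays were most like those of SUCLA2, which had the smallest p of the group, were C5orf34, LOC100133185 and TAF1, a subunit of the general transcription factor TFIID, with Pearson's r of 0.996, 0.994 and 0.992. These r include the difference between the 2 groups of arrays and are given as a description. They are the highest of all tested genes over only 6 arrays, so the choice itself favours high values. LOC100133185 fell by 0.51 (limma, adjusted p = 0.00495), while C5orf34 and TAF1 differed by -0.18 and -0.23 without passing (limma, adjusted p = 0.270 and 0.155).

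Genes of neighbouring steps were followed as lists beside the 10 enzymes. Of 11 tested genes of pyruvate entry, 0 rose and 2 fell, with a median of 0.07. The 2 were PDPR, a regulatory subunit of pyruvate dehydrogenase phosphatase, which fell by 0.76 ± 0.11 (SE), and the pyruvate dehydrogenase kinase PDK3, which fell by 0.40 ± 0.12 (SE; limma, adjusted p = 0.000240 and 0.0272). Of the other two tested probes of PDPR, ILMN_1778013 fell by 0.56 ± 0.12 (SE; limma over all probes, adjusted p = 0.00621) and ILMN_1736856 differed by -0.06, and a pseudogene of PDPR is listed in RefSeq. The next list held 8 tested genes, which belong to other complexes that use DLD, resemble OGDH or, as BCKDK, regulate such a complex. Among them 1 rose and 2 fell, with a median of -0.01. The kinase BCKDK of the branched-chain 2-oxoacid dehydrogenase complex fell by 1.06 ± 0.12 (SE) and the complex's E1 beta subunit BCKDHB by 0.90 ± 0.11 (SE), while the transacylase DBT rose by 0.48 ± 0.12 (SE; limma, adjusted p = 0.0109). The other E1 subunit, BCKDHA, differed by -0.01 ± 0.13 (SE). Of the other two detected probes of BCKDHB, ILMN_1655433 fell by 0.96 ± 0.11 (SE; limma over all probes, adjusted p = 6.78e-05) and ILMN_1764166 differed by -0.14. Of 4 tested genes of lipoic acid attachment 0 passed in limma, and the smallest unadjusted p, 0.0119, was that of the lipoyl synthase LIAS, at -0.30 ± 0.11 (SE; adjusted p = 0.0579). The other LIAS probe, ILMN_2393341, was detected on 6 arrays and differed by only -0.045 ± 0.14 (SE).

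Among 8 genes of succinate dehydrogenase and its assembly factors 1 rose and 0 fell, with a median of 0.06. The riser was the assembly factor SDHAF1, by 0.79 ± 0.11 (SE; limma, adjusted p = 0.000160), whose dimmer probes differed by 0.40 and 0.21 without passing. The brightest probe of the membrane subunit SDHC differed by -0.21 ± 0.14 (SE), while its probe ILMN_2323366 fell by 0.40 ± 0.11 (SE; limma over all probes, adjusted p = 0.0215).

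Of 11 genes of the malate-aspartate shuttle, citrate export and malic enzymes 2 rose and 1 fell, with a median of 0.03. The cytosolic transaminase GOT1 rose by 0.54 ± 0.11 (SE) and the mitochondrial citrate carrier SLC25A1 by 0.43 ± 0.11 (SE), at 0.00255 and 0.0131 after adjustment in limma. ME1, the cytosolic malic enzyme, was the one that fell, by 0.49 ± 0.11 (SE; limma, adjusted p = 0.00487). Another list held 6 genes of anaplerosis, of phosphoenolpyruvate formation (PCK2) and of pathways that release fumarate. Of these 0 passed in limma, and the smallest unadjusted p, 0.0796, was that of PCK2 at 0.24 ± 0.13 (SE, adjusted p = 0.212). Pyruvate carboxylase (PC), also anaplerotic, was counted under pyruvate entry and differed by 0.32 ± 0.11 (SE, limma, adjusted p = 0.0513). The counts of all these lists stand beside the same background of 19.2% of all genes.

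**Figure D4:**
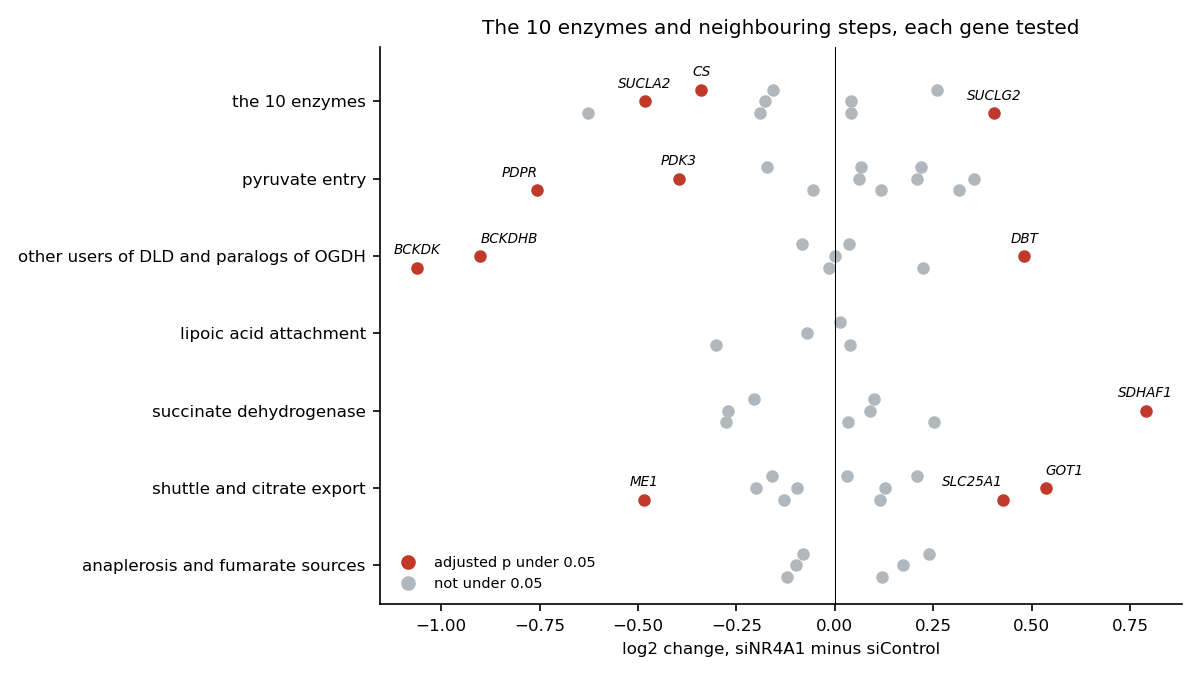
Log2 change (x axis, siNR4A1 minus siControl) of each tested gene of the 10 enzymes and of 6 lists of neighbouring steps (rows), red and named where the adjusted p was under 0.05. Calls lie on both sides of 0 among the 10 enzymes, the shuttle genes and the row of DLD users, which includes the regulatory kinase BCKDK. Over all rows they run from BCKDK at -1.06 to SDHAF1, a succinate dehydrogenase assembly factor, at 0.79.

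**Figure D5:**
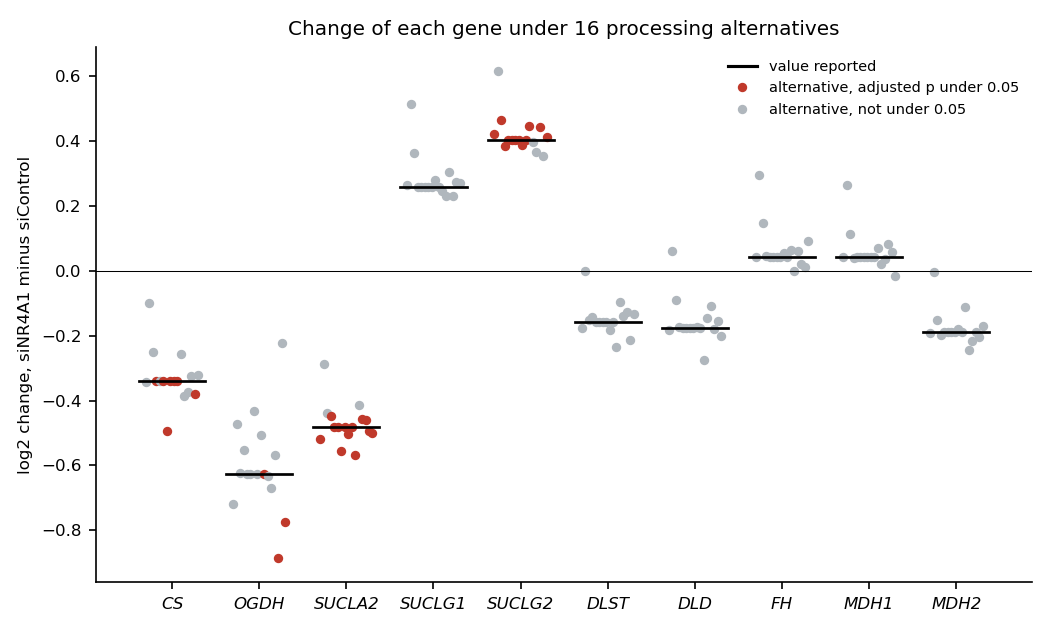
Log2 change (y axis, siNR4A1 minus siControl) of each of the 10 genes as reported (black line) and under 16 processing alternatives (points, red where the adjusted p was under 0.05). SUCLA2 passed in 13, SUCLG2 in 12, CS in 7 and OGDH in 3 of the 16, and the other 6 genes in 0.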

How the data were processed

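Linear probe intensities of 6 arrays, as deposited by the authors, come without detection p-values or control probes. The submitters' processing notes name BeadStudio without a version; chip type and genome build were not given in the sources used here. In addition, the authors' deposited log2 table equals quantile-normalized log2 intensity within 0.005, and each column has a median of 6.74; it served as an alternative. Intensities were corrected by normexp (offset 50), quantile-normalized and taken to log2, so changes of dim genes are understated. Detection took each array's log2 signal mode (bandwidth 0.03) and the spread below it as background, with a limit at its 95% point; a named probe had to be detected on 3 or more arrays, which left 18231. Symbols were updated through the RefSeq table of GRCh38.p14, used for names and promoter sequences. The probe with the highest mean stood for a gene. All p-values of genes come from limma 3.58.1 under R 4.3.3 (lmFit, eBayes), siNR4A1 minus siControl, without covariates, adjusted by Benjamini-Hochberg over all genes or, where stated, over all probes. Steps were tested on simulated data. Genes named were the 10 enzymes whatever their test, and list genes past the threshold or else the 1 with the smallest p. The 3 genes most like the member with the smallest p were named too. Outside that rule, list genes also named were BCKDHA beside BCKDHB, SDHC for a probe other than its brightest, and PC beside the anaplerosis list. Members and lists were chosen with earlier results of these data known. The list of the isocitrate steps is not reported here. Alternatives covered offset, scaling, filter, probe choice, variance model, array weights, replicate block and each array left out; a block by chip was not run, as no chip is named. The number of arrays limits precision.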

Additional observations from a re-analysis of the deposited data

How the results depend on the processing

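Over the 16 alternatives the log2 changes of CS, OGDH, SUCLA2, SUCLG1 and SUCLG2 kept their sign in all. Those of DLST, FH and MDH2 did so too, but in some settings were too small to give a direction. DLST and MDH2 lay at -0.0017 and -0.0020 with array medians equalized, and FH at 0.00033 without siNR4A1 replicate 2. DLD turned to 0.061 with array medians equalized. MDH1 ran from -0.016 (without siControl replicate 3) to 0.084 when 1 array was left out. Of the 10 genes 1 rose and 2 fell as reported. With an offset of 16 and with no detection filter 1 fell, CS being lost (adjusted p = 0.0925 and 0.0599). With medians of detected probes equalized 0 fell, and over all genes 694 rose and 558 fell, against 1462 and 1180 as reported; with array medians equalized 0 rose and 0 fell, in the group and over all genes, and the cause was not tested. With each array left out in turn 0 to 1 rose and 0 to 2 fell in the group, and 735 to 1680 rose and 715 to 1288 fell over all genes. Leaving out siNR4A1 replicate 2 ended all 3 calls. MDH1 minus MDH2 ran from 0.15 to 0.27 and SUCLA2 minus SUCLG2 from -1.02 to -0.81 without 1 array. With the replicate number as a block 1 rose and 3 fell, OGDH at -0.63 being added (adjusted p = 0.0186), and over all genes 1614 rose and 1336 fell. The deviations of same-numbered arrays correlated at 0.03, 0.08 and 0.17, and those of arrays with different numbers at -0.13 to 0.06. The siNR4A1 replicates 2 and 3 correlated best with the siControl array of their own number, and siNR4A1 replicate 1 with siControl replicate 2. The labels name no shared culture, so the numbers were not taken as pairs, but these values do not settle whether they are. OGDH rests on siControl replicate 2, and its dimmer probes lie at or near background, where signal limits what can be read.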
